A study of Bos taurus with 20 samples.

Results

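The genes described here are fibroblast growth factor (FGF) ligands, FGF receptors and feedback inhibitors of FGF signaling in the bovine morula. They were chosen by symbol: every probe set whose only gene symbol in the array annotation was *FGF2*, *FGF4*, *FGF10*, *FGFR1*, *FGFR2*, *FGFR3*, *FGFR4*, *DUSP6*, *SPRY2* or *SPRY4*. The rule found 10 genes of 18010 with a probe set of their own, and these 10 genes had 11 of the 26773 probe sets. There were 4 ligand probe sets (*FGF10* has 2 of them, 12785032 and 12787027), 4 receptor probe sets and 3 feedback inhibitor probe sets. None was removed by a filter, and by the RefSeq gene table of ARS-UCD2.0 none of the genes is X-linked.

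Embryos were *Bos taurus* morulae made by in vitro fertilization with X- or Y-sorted sperm, each time pooled from several bulls, and cultured in SOF-BE1 medium. The groups were female morulae treated with DKK1, female control morulae, male morulae treated with DKK1 and male control morulae, with 5 pools of 20 morulae in each group and 1 Affymetrix Bovine Gene 1.0 ST array per pool. DKK1 was the human recombinant protein, an antagonist of canonical WNT signaling, given at 100 ng/ml from Day 5, and control drops received its vehicle, phosphate-buffered saline with bovine serum albumin. All pools were collected 24 h later, on Day 6, and mixed compacted and non-compacted morulae without blastocysts, and because sorted semen is not pure, a pool labelled as 1 sex can hold some embryos of the other.

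FGF ligands bind receptor tyrosine kinases at the cell surface together with heparan sulfate, and the activated receptor recruits adaptors that turn on RAS and the ERK kinase cascade. The cascade induces its own inhibitors: sprouty proteins act upstream of ERK, and the phosphatase DUSP6 dephosphorylates ERK, so transcripts of these genes are commonly used as readouts of FGF activity. In mammalian preimplantation embryos FGF signaling is best known for its part in separating hypoblast (primitive endoderm) from epiblast in the inner cell mass, and in ruminants FGF2 is also known as a stimulator of trophectoderm. In each pool a lower level can come from fewer cells that carry a transcript or from less transcript per cell, and these cannot be told apart.

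The labelled stage was checked with lineage genes. *KRT8* (mean log2 intensity over 20 arrays 10.77), *CDH1* (10.63) and *POU5F1* (10.45) were bright on the arrays. Of the genes known from hypoblast, *GATA6* (10.57) and *PDGFRA* (8.32) were bright and *SOX17* (4.13) and *GATA4* (3.90) were dim. The mean of the 13 lineage genes per array was 8.24 to 8.62 in DKK1 and 8.17 to 8.57 in control arrays. *XIST* was 8.42 to 10.03 on female arrays and 6.30 to 8.22 on 9 male arrays, and the Y-linked *DDX3Y* was 2.65 to 5.43 on female arrays and 6.29 to 8.36 on the same 9 male arrays. The array labelled male control replicate 2 had *XIST* at 8.81 and *DDX3Y* at 4.82, within the range of the female arrays. That array also had the highest median of all probe sets (4.82, against 4.58 to 4.73 for the others) and the lowest mean correlation with the other arrays (0.941, against 0.957 to 0.967). It was kept under its label, and for a number of results the value with that array left out is also given. With Benjamini-Hochberg adjustment at 0.05, 0% of the 26773 probe sets passed for DKK1 minus control and 0% for DKK1 in males, 0.00374% (1 probe set without a symbol) passed for DKK1 in females and also for the interaction, and 0.0336% (9 probe sets) passed for sex, and no FGF member was among them. Without male control replicate 2 the count for sex was 20. DKK1 reached an unadjusted P under 0.05 at 1062 probe sets, of which 41.0% were higher in DKK1 arrays, which became 58.7% after each array was centered on its median.

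The members covered a wide range of intensity. *FGFR4* was the brightest, with a mean log2 intensity of 7.71 and a mean rank at percentile 84.5 of the probe sets of an array. *SPRY2* (6.35, percentile 72.5), *SPRY4* (6.16, percentile 70.4) and *FGFR3* (6.04, percentile 69.3) followed. *FGF4* (5.14), *FGFR2* (4.89), *DUSP6* (4.74) and *FGFR1* (4.27) lay between percentiles 42.8 and 55.6. The dimmest were *FGF10* by probe set 12787027 (2.93), *FGF2* (2.88) and *FGF10* by probe set 12785032 (2.40, percentile 6.80). As a gauge of the signal of probe sets with little target in an embryo, 17 genes of differentiated adult tissues had a median of 3.89 and a range of 2.32 to 8.11, with *TNNI3* (8.11) and *INS* (5.98) the brightest of them. The 3 dimmest FGF probe sets were below that median and the other 8 above it. Probes differ in affinity, so the order of members is one of intensities, not of transcript abundance.

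**Figure D1:**
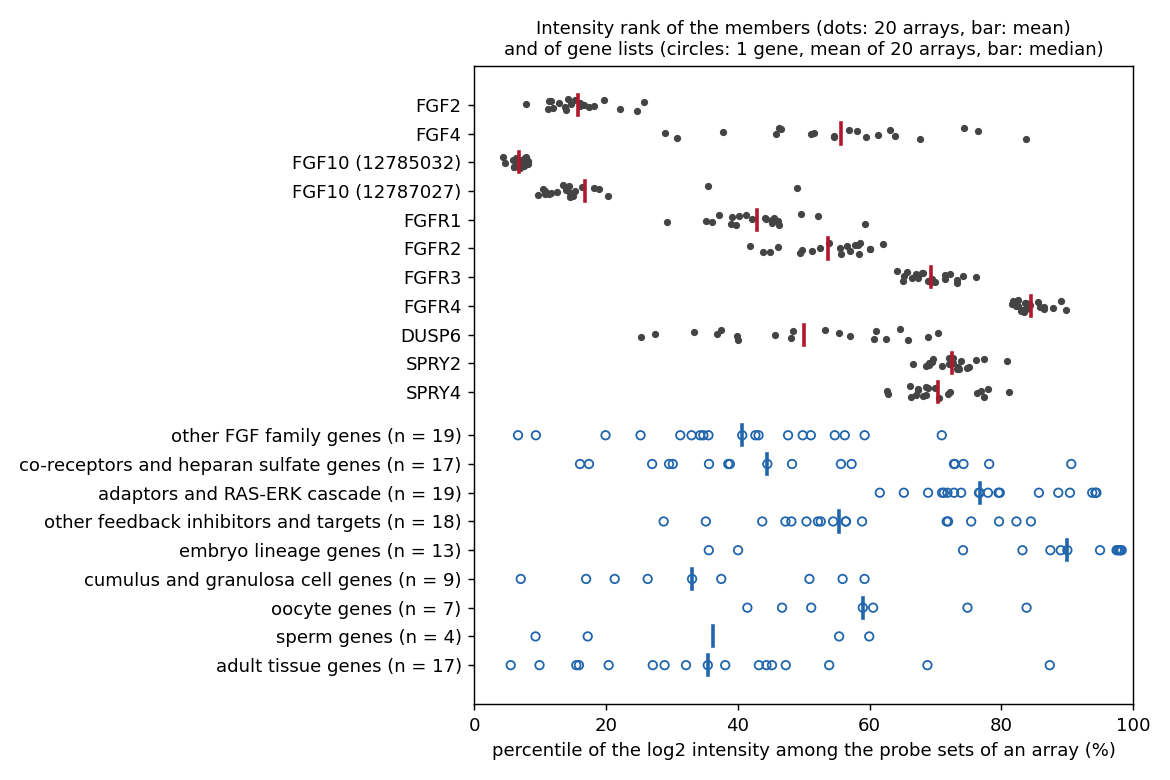
Percentile of the log2 intensity among the 26773 probe sets of an array. Rows with filled dots are the FGF members (1 dot per array, 20 arrays, bar at the mean) and rows with open circles are gene lists (1 circle per gene, bar at the median); *FGF2* and both *FGF10* probe sets sit at the low end, where adult tissue genes also lie, and *FGFR4* sits above the 81.5th percentile on every array.

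**Figure D2:**
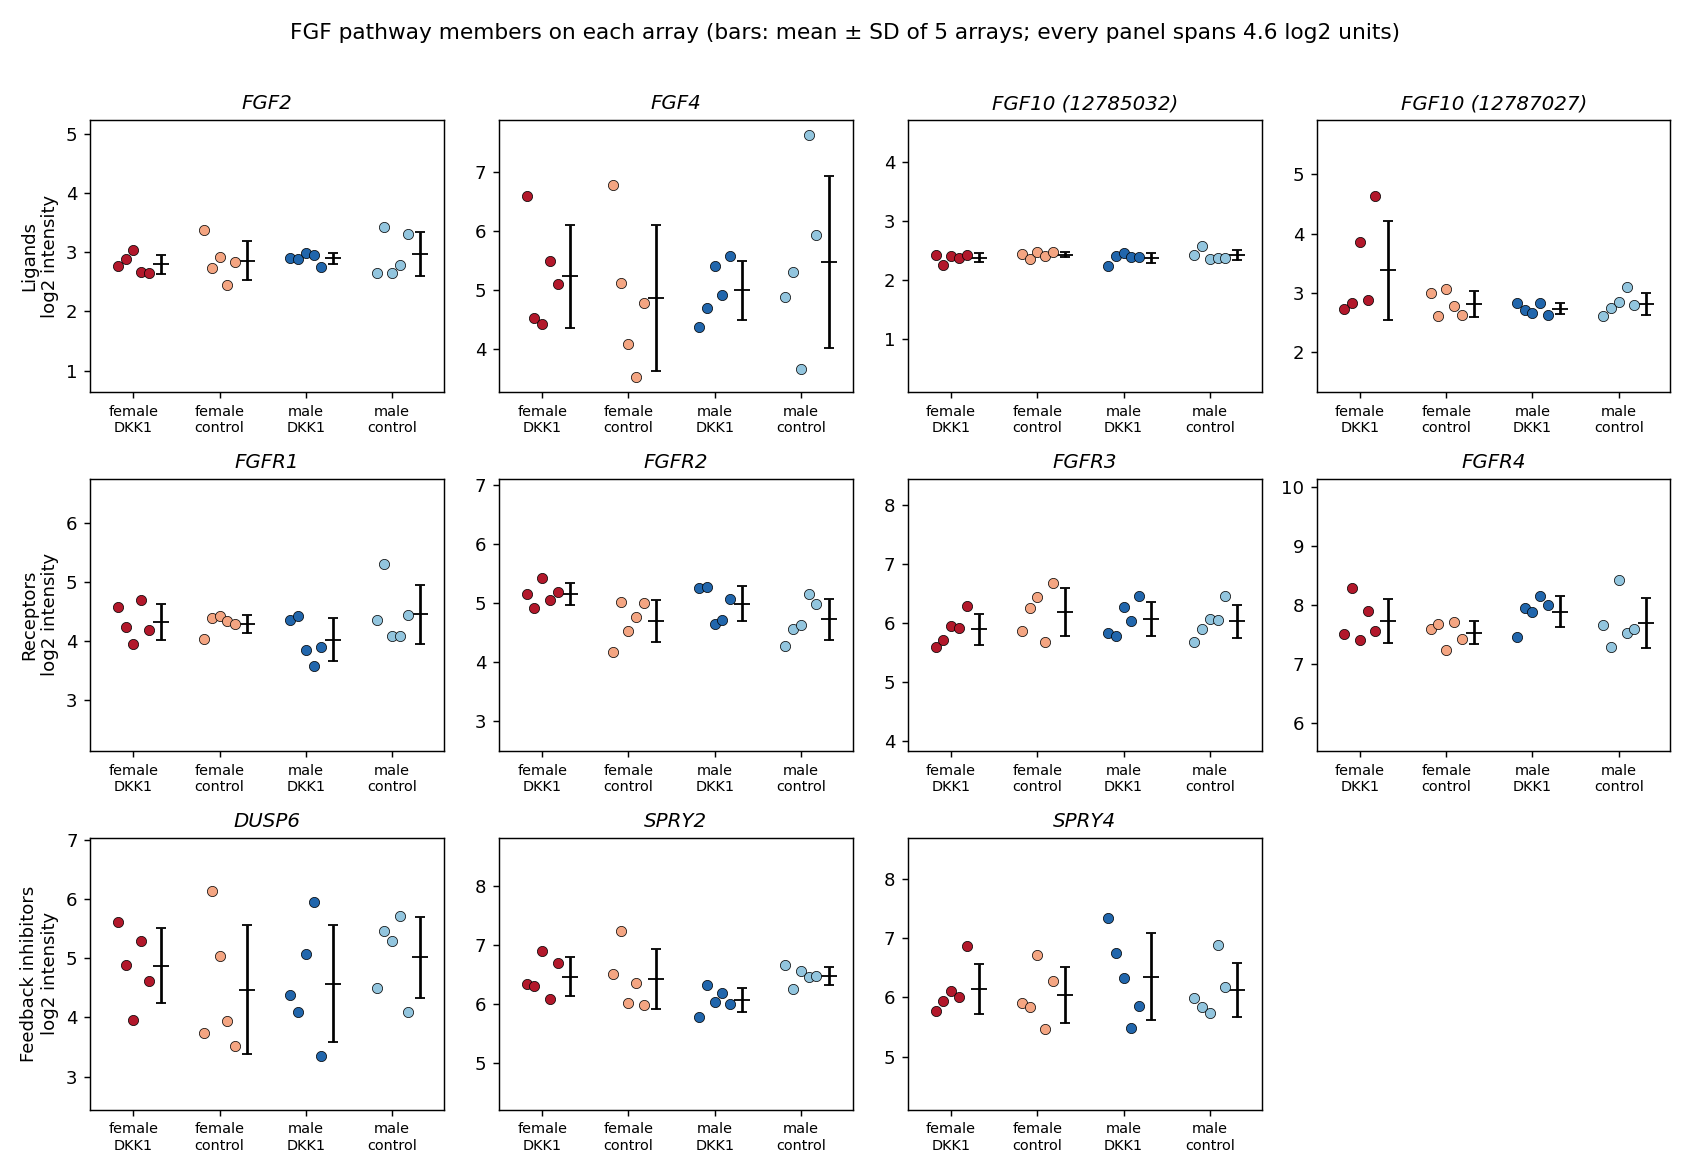
Log2 intensity of each FGF member on each of the 20 arrays, with mean ± SD of the 5 arrays of a group beside the points. The panels share one span of log2 units but not one origin; *FGF4* and *DUSP6* have the widest spread within groups (pooled SD 1.08 and 0.88), while *FGF10* probe set 12785032 stays between 2.24 and 2.57.

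Among the ligands, none passed the test for DKK1 over both sexes, and the 2 probe sets of *FGF10* differed in the within-female comparison. *FGF4*, the ligand made by the inner cell mass and epiblast of mammalian embryos, was the most variable member. It read 6.59, 4.52, 4.43, 5.49 and 5.10 in female DKK1 arrays, against 6.77, 5.12, 4.08, 3.53 and 4.78 in female control arrays. In males it read 4.38, 4.69, 5.40, 4.91 and 5.58 with DKK1, against 4.88, 5.30, 3.66, 7.61 and 5.92 in controls. The groups overlapped throughout, and no DKK1 array exceeded the highest control array of its sex. The DKK1 minus control difference was -0.06 (SE 0.45, 95% confidence interval -0.99 to 0.88, exact permutation P = 0.91), an interval that holds changes of almost 1 log2 unit either way. By sex it was 0.37 in females and -0.48 in males (exact permutation P = 0.58 and 0.57), and the difference between these effects was 0.85 (SE 0.89, confidence interval -1.02 to 2.72). Without male control replicate 4, the array at 7.61, the difference in males was 0.05.

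The spread of *FGF4* within groups (pooled SD 1.08) was larger than that of 97.3% of all probe sets, and larger than that of 95.9% of the 2022 probe sets whose mean was within 0.25 of its own. Its range over the 20 arrays was 4.08 log2 units. The 4 group means lay between 4.86 and 5.47.

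*FGF2*, a ligand that stimulates bovine trophectoderm, was dim. Its arrays lay between 2.65 and 3.04 in DKK1 and between 2.45 and 3.42 in control morulae. The difference was -0.06 (SE 0.12, confidence interval -0.31 to 0.19, exact permutation P = 0.59). A further probe set, 12741622, is annotated to *FGF2* together with *NUDT6*, the gene on the opposite strand of *FGF2*, and was left out by the rule. It averaged 4.55 (3.18 to 5.97), differed by 0.13 with DKK1 (SE 0.34), and its values bore little relation to those of the *FGF2* probe set over the 20 arrays (r = -0.03), so the 2 probe sets cannot stand for each other.

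*FGF10* is a ligand of the epithelial isoform of FGFR2. Probe set 12787027 read 2.72, 2.83, 3.85, 2.88 and 4.64 in female DKK1 arrays, against 2.99, 2.60, 3.07, 2.77 and 2.62 in female control arrays. Replicates 3 and 5 were above every control array, and the other 3 DKK1 arrays were within the control range. The difference was 0.58 (1.49-fold, SE 0.27, limma P = 0.044, adjusted P = 0.9994), and an exact permutation test over the 10 female arrays, two-sided, gave P = 0.23. Without female DKK1 replicate 5 it was 0.26 and without replicate 3 it was 0.46, and neither passed the limma threshold.

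In males the same probe set read 2.63 to 2.83 with DKK1 and 2.60 to 3.10 in controls. The effects in the sexes differed by 0.66 (SE 0.38, confidence interval -0.13 to 1.46). The other *FGF10* probe set, 12785032, lay between 2.24 and 2.46 in DKK1 and between 2.36 and 2.57 in control arrays (difference -0.05, SE 0.06, exact permutation P = 0.15). Its spread was smaller than that of all but 0.120% of the probe sets, so the 2 probe sets of this gene did not show the same pattern.

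The receptors transmit the signal of the ligands, and isoforms of FGFR1 to FGFR3 differ in the ligands that they bind, which a gene-level probe set does not separate. By intensity, *FGFR4* ranked first and *FGFR3* second among the receptors on 20 of 20 arrays, in all 4 groups. *FGFR2* was above *FGFR1* on 18 of 20 arrays. The mean gap was 1.67 ± 0.48 between *FGFR4* and *FGFR3*, 1.15 ± 0.44 between *FGFR3* and *FGFR2* and 0.62 ± 0.50 between *FGFR2* and *FGFR1* (log2, SD over 20 arrays). The smallest gap was 0.75 for the first of these pairs and 0.43 for the second, so these neighbors never met on an array, while *FGFR2* and *FGFR1* did. The exceptions were male control replicates 1 and 2. Without replicate 2, *FGFR2* was above *FGFR1* on 18 of 19 arrays, with a mean gap of 0.69 ± 0.40.

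**Figure D3:**
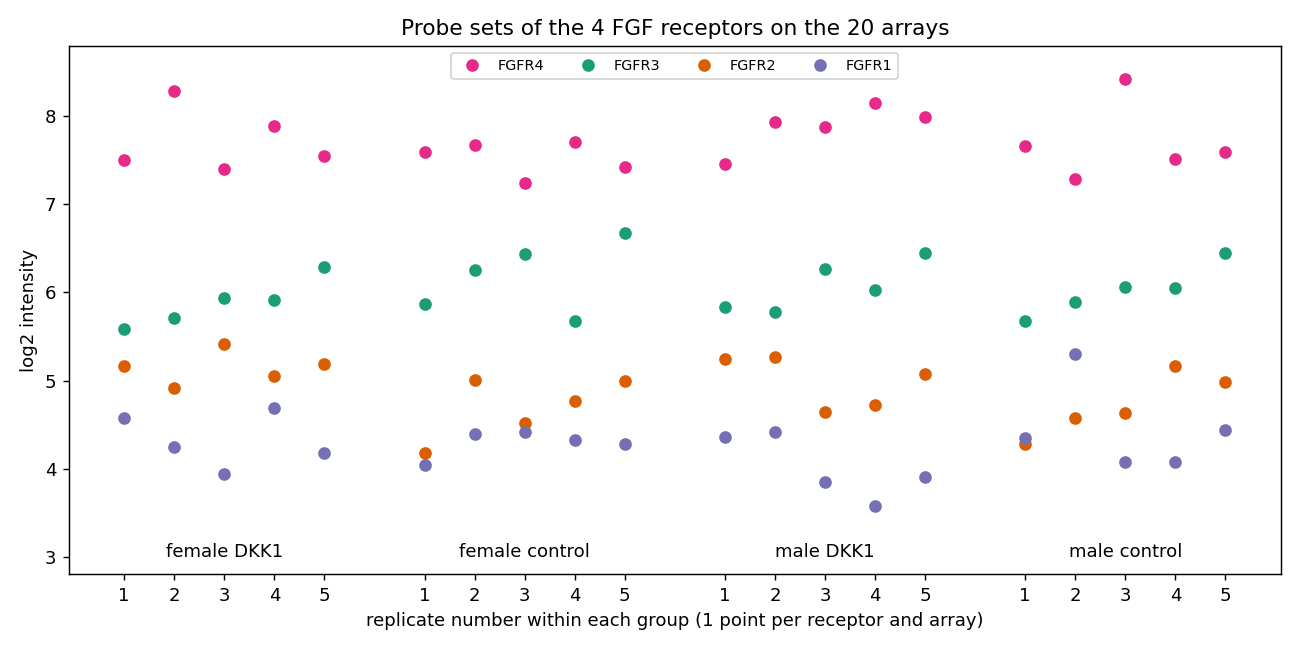
Log2 intensity of the probe sets of *FGFR4*, *FGFR3*, *FGFR2* and *FGFR1* on the 20 arrays, by group and replicate number. *FGFR4* and *FGFR3* keep their places on every array, and *FGFR1* lies above *FGFR2* only in male control replicates 1 and 2.

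*FGFR2*, a receptor for FGF10 and other ligands that is found in mouse trophectoderm, was higher after DKK1 at the unadjusted threshold only. It read 5.16, 4.92, 5.42, 5.05 and 5.19 in female DKK1 arrays, against 4.18, 5.01, 4.52, 4.77 and 5.00 in female control arrays. In males it read 5.25, 5.27, 4.64, 4.72 and 5.07 with DKK1, against 4.28, 4.57, 4.63, 5.16 and 4.98 in controls. In females 4 of 5 DKK1 arrays were above the highest control array and all 5 were above the control mean, whereas in males 2 of 5 were above the highest control array and the groups overlapped.

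Over both sexes *FGFR2* averaged 0.36 higher with DKK1 (1.28-fold, SE 0.13, confidence interval 0.08 to 0.64, unadjusted limma P = 0.015, adjusted P = 0.9996, and two-sided exact permutation of treatment within sex P = 0.016). It was the only 1 of the 11 members with an unadjusted P under 0.05, against 3.97% of all 26773 probe sets, and 282 other probe sets had a smaller P. Of the 10 DKK1 arrays, 9 were above the mean of the control arrays and 4 were above the highest control array. The unadjusted P stayed under 0.05 in each of the 28 alternatives that included this probe set, the permutation among them (difference 0.29 to 0.41, P from 0.0057 to 0.033), and without male control replicate 2 the difference was 0.34. With a mean of 4.89 the probe set lies below the 10000 brightest, whose lowest mean was 5.46.

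Within sexes, the *FGFR2* difference was 0.45 in females (1.37-fold, SE 0.19, P = 0.028, adjusted P = 0.9994; exact permutation, two-sided, P = 0.032) and 0.26 in males (SE 0.19, exact permutation P = 0.21). The effects did not differ between sexes beyond their error (0.19, SE 0.27, confidence interval -0.37 to 0.75). The limma call in females was lost without female DKK1 replicate 3 (difference 0.38), female control replicate 1 (0.32) or female control replicate 3 (0.41). *FGFR2* and *FGF4* had been singled out by the study in these same samples, so the difference is not independent evidence.

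**Figure D4:**
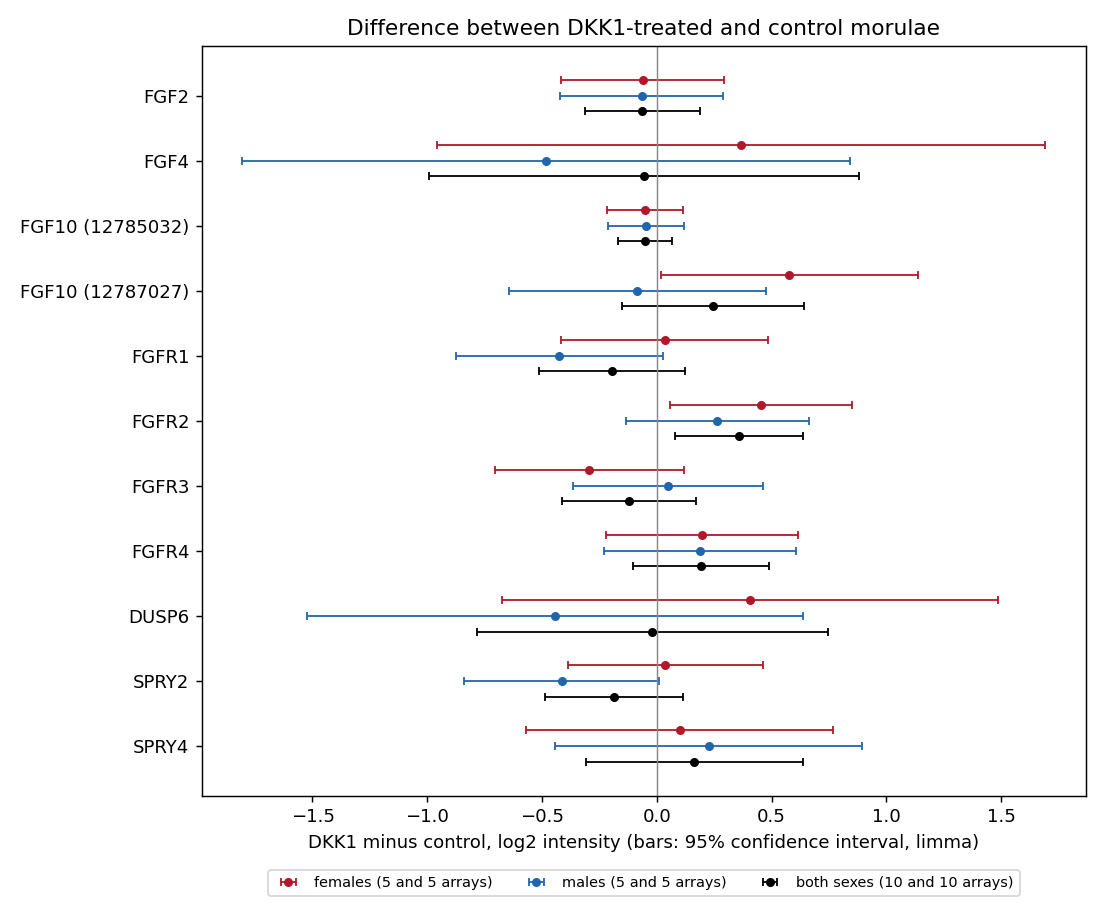
DKK1 minus control difference in log2 intensity for each FGF member, in females, in males and over both sexes. Points are limma estimates and bars 95% confidence intervals; the interval for *FGFR2* is above 0 in females and over both sexes, that for *FGF10* probe set 12787027 in females, and all others cross 0.

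The other receptors did not pass the test for DKK1. *FGFR4* read 7.50, 8.29, 7.40, 7.89 and 7.55 in female DKK1 arrays, against 7.60, 7.67, 7.24, 7.71 and 7.43 in female controls. In males it read 7.46, 7.94, 7.88, 8.15 and 7.99 with DKK1, against 7.66, 7.29, 8.42, 7.52 and 7.59 in controls. The difference was 0.20 in females and 0.19 in males, and 0.19 over both sexes (SE 0.14, confidence interval -0.10 to 0.49, exact permutation P = 0.19). Male control replicate 3, at 8.42, was the highest of all arrays, and without it the difference over both sexes was 0.28, with an unadjusted P under 0.05. That was the only 1 of 29 alternatives, the permutation among them, in which *FGFR4* passed. Without single arrays the difference ran from 0.12 to 0.28.

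*FGFR3*, the receptor second in intensity, read 5.59, 5.71, 5.94, 5.92 and 6.29 in female DKK1 arrays, against 5.87, 6.25, 6.44, 5.68 and 6.68 in female controls. In males it read 5.83, 5.78, 6.27, 6.03 and 6.45 with DKK1, against 5.68, 5.89, 6.06, 6.05 and 6.45 in controls. Over both sexes the difference was -0.12 (SE 0.14), and in females it was -0.29 (SE 0.20), with exact permutation P = 0.40 and 0.23. The array with number 5 was the highest of its group in all 4 groups for *FGFR3*, which held for no other member. The difference in females passed an unadjusted P of 0.05 with the replicate number as a block, and also without female control replicate 4 (-0.42).

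*FGFR1*, a receptor typical of mesenchymal cells, read 4.36, 4.42, 3.85, 3.58 and 3.90 in male DKK1 arrays, against 4.35, 5.30, 4.08, 4.08 and 4.44 in male controls. The highest of these was male control replicate 2, the array whose sex genes went against its label. All 5 DKK1 arrays were below the control mean and 3 were below the lowest control array. The difference in males was -0.42 (SE 0.22, exact permutation P = 0.16) and was -0.21 without that array. It passed an unadjusted P of 0.05 when male DKK1 replicate 1 or 2 or male control replicate 3 or 4 was left out (-0.52 to -0.51). In females *FGFR1* lay between 3.94 and 4.69 with DKK1 and between 4.04 and 4.42 in controls, and over both sexes the difference was -0.19 (SE 0.15, exact permutation P = 0.26).

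Of the feedback inhibitors none passed the limma test for DKK1, and *SPRY2* came nearest to it, in males. *SPRY2* inhibits receptor tyrosine kinase signaling to ERK. It read 5.78, 6.32, 6.04, 6.18 and 5.99 in male DKK1 arrays, against 6.65, 6.25, 6.55, 6.45 and 6.47 in male controls. All 5 DKK1 arrays were below the control mean and 4 were below the lowest control array. The difference was -0.41 (0.75-fold, SE 0.20, confidence interval -0.84 to 0.01). Limma gave an unadjusted P = 0.056 and adjusted P = 0.9998, and the exact permutation test over the 10 male arrays, two-sided, gave P = 0.016, where 0.0079 is the smallest P that 5 against 5 arrays allow.

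The 2 tests used different spreads for *SPRY2*. The SD was 0.20 and 0.15 in the male DKK1 and male control groups, and 0.33 and 0.51 in the female DKK1 and female control groups, and limma pooled all 4. The limma P in males fell under 0.05 without female control replicate 2, at 7.24, female control replicate 5 or female DKK1 replicate 3. It also did so without male control replicate 2 (difference -0.47) or male DKK1 replicate 2 (-0.48). P was under 0.05 in 8 of 29 alternatives, the permutation among them. In females *SPRY2* read 6.34, 6.30, 6.90, 6.08 and 6.69 with DKK1, against 6.50, 7.24, 6.02, 6.36 and 5.98 in controls (difference 0.04, exact permutation P = 0.91). The effects in the sexes differed by 0.45 (SE 0.29, confidence interval -0.15 to 1.05), and by 0.66, with an unadjusted P under 0.05, without female control replicate 2.

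*SPRY4*, another sprouty inhibitor, did not move with *SPRY2*. It lay between 5.77 and 6.86 in female DKK1 arrays, against 5.46 to 6.71 in female controls. In males it lay between 5.48 and 7.34 with DKK1, against 5.74 to 6.88 in controls. The difference over both sexes was 0.16 (SE 0.23, confidence interval -0.31 to 0.64, exact permutation P = 0.49).

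*DUSP6* encodes the ERK phosphatase. It read 5.62, 4.89, 3.96, 5.30 and 4.62 in female DKK1 arrays, against 3.74, 6.13, 5.04, 3.94 and 3.51 in female controls. In males it read 4.38, 4.10, 5.08, 5.96 and 3.35 with DKK1, against 4.50, 5.47, 5.30, 5.72 and 4.10 in controls. Values spread widely within every group and the groups overlapped, and the pooled SD of 0.88 was larger than that of 95.1% of all probe sets. The difference was -0.02 over both sexes (SE 0.36, confidence interval -0.78 to 0.74), 0.41 in females and -0.44 in males, with exact permutation P = 0.96, 0.48 and 0.44. Its sign over both sexes turned when arrays were centered on their medians (0.01) and when some single arrays were left out.

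Across the members, then, 2 of 11 probe sets had an unadjusted P under 0.05 in females (*FGFR2* and *FGF10* probe set 12787027), against 4.09% of all probe sets, and 0 of 11 in males by limma, against 4.03%. The exact permutation test gave P under 0.05 for 1 member in each sex, *FGFR2* in females and *SPRY2* in males. It was run for the members only and without adjustment, so no share of all probe sets can be set beside that count. For the interaction 0 of 11 passed, against 4.19% of all probe sets. Taking 1 probe set per gene, the difference with DKK1 was above 0 for 8 of 10 genes in females (median 0.15). In males it was above 0 for 4 of 10 (median -0.08). The medians of all probe sets were -0.01 and -0.02, so in both sexes more probe sets lay below 0 than above it. That background depended on scaling: after each array was centered on its median, the medians were 0.008 in females and 0.014 in males. In females *FGFR1* (0.035, SE 0.22) and *SPRY2* (0.037, SE 0.20) counted as above 0. *FGF10* did so by probe set 12787027, while 12785032 was at -0.05. A shift of the members as a set was not tested.

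Sex itself changed no FGF member past the threshold: 0 of 11 passed, against 4.82% of all probe sets. The female minus male difference was 0.33 for *FGF10* probe set 12787027 (SE 0.19, confidence interval -0.07 to 0.72), with means of 3.10 in female and 2.77 in male arrays. It was 0.17 for *SPRY2* (SE 0.14) and -0.19 for *FGF4* (SE 0.45), and the other 8 lay between these. The male arrays here include male control replicate 2, whose sex genes went against its label. Without single arrays the difference ran from 0.17 to 0.41 for *FGF10* probe set 12787027. It ran from 0.071 to 0.23 for *SPRY2* and from -0.43 to 0.074 for *FGF4*. That of *FGF10* passed an unadjusted P of 0.05 without female DKK1 replicate 1 (0.41).

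Genes around the receptors were read from 4 lists with 73 measured genes. The 19 other genes of the FGF family, of which *FGF11* to *FGF14* encode intracellular factors and not secreted ligands, had a median level of 4.16, and the brightest were *FGF3* (6.19) and *FGF9* (5.34). Co-receptors and heparan sulfate genes, which present ligand to receptor, had a median of 4.36 over 17 of 18 genes, led by *SDC4* (8.59), a cell surface heparan sulfate proteoglycan, and *EXT1* (6.98), an enzyme that builds heparan sulfate chains. Adaptors and the RAS-ERK cascade had a median of 6.80 over 19 of 22 genes, led by the small GTPase *NRAS* (9.36) and the phosphatase *PTPN11* (9.31). The remaining genes of these lists were not analysed here. The 18 other feedback inhibitors and transcriptional targets had a median of 4.99, led by *SPRED1* (7.70), an inhibitor of RAS activation, and *ELK1* (7.44), a transcription factor that ERK phosphorylates.

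Over both sexes, none of the 73 genes passed an unadjusted P under 0.05 for DKK1, against 3.97% of all probe sets. In females 3 of 73 did, all higher with DKK1, a share near the 4.09% of all probe sets. *SOS1*, the exchange factor that loads RAS with GTP, averaged 6.66 in DKK1 arrays and 6.15 in controls (difference 0.51, SE 0.21, adjusted P = 0.9994). *NRAS* averaged 9.52 in DKK1 arrays and 9.18 in controls (difference 0.34, SE 0.14, adjusted P = 0.9994). *ETV5*, a transcription factor induced by FGF signaling, averaged 4.74 in DKK1 arrays and 3.81 in controls (difference 0.94, SE 0.43, adjusted P = 0.9994), with DKK1 arrays between 3.85 and 6.16 and controls between 3.50 and 4.42.

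These 3 calls were not stable when single arrays were left out. Without female control replicate 3 none of them held (*SOS1* 0.42, *NRAS* 0.26, *ETV5* 0.86), nor did they without female DKK1 replicate 3 (0.44, 0.28 and 0.58 in that order). In males 1 of 73 passed, against 4.03% of all probe sets. It was *KL*, which encodes klotho, the co-receptor of endocrine FGF. It averaged 2.86 in DKK1 arrays and 3.16 in controls (difference -0.30, SE 0.12, adjusted P = 0.9998), and without male control replicate 2 the difference was -0.19 and did not pass. No adjusted P in these lists was under 0.05.

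**Figure D5:**
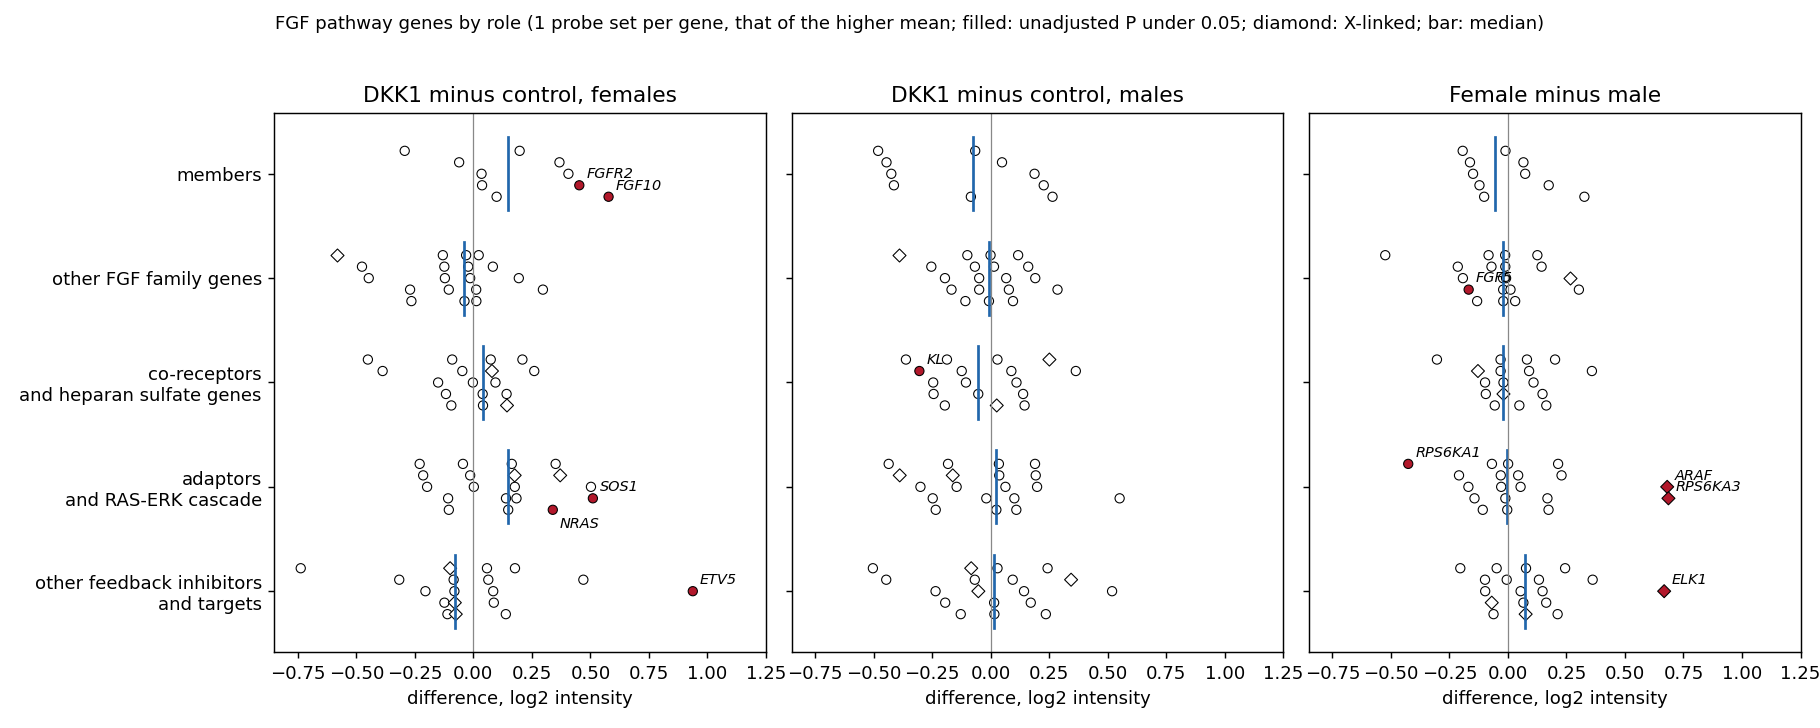
Differences in log2 intensity for the FGF members and 4 lists of pathway genes: DKK1 minus control in females (left), in males (middle), and female minus male (right), 1 probe set per gene. Filled symbols had an unadjusted P under 0.05, diamonds are genes that the RefSeq table places on the X chromosome and bars are list medians; 3 of the 5 named genes in the right panel are X-linked and lie near 0.7.

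The interaction had an unadjusted P under 0.05 for 3 of the 73 genes, a share near the 4.19% of all probe sets. *FRS2*, the docking protein that FGF receptors phosphorylate, averaged 8.47 in female DKK1 arrays and 7.96 in female controls, and 8.17 in male DKK1 arrays and 8.60 in male controls (interaction 0.94, SE 0.38, adjusted P = 0.9999). *PLCG1*, a phospholipase that binds activated receptors, averaged 6.67 in female DKK1 arrays and 6.32 in female controls, and 6.34 in male DKK1 arrays and 6.64 in male controls (interaction 0.65, SE 0.28, adjusted P = 0.9999). *KL* had an interaction of 0.40 (SE 0.17, adjusted P = 0.9999), which was 0.29 without male control replicate 2. The unadjusted call of *KL* was lost with array weights (0.28) and without female DKK1 replicate 5 (0.36) or female control replicate 2 or 5 (0.37 each). That of *PLCG1* was lost without female DKK1 replicate 4 (0.60), female control replicate 4 (0.52), male DKK1 replicate 4 (0.51) or male control replicate 5 (0.56). *FRS2* kept its unadjusted call in 28 of 28 alternatives (0.76 to 1.13).

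For sex, 5 of the 73 genes passed an unadjusted P under 0.05, against 4.82% of all probe sets. *ARAF*, a kinase that activates MEK, averaged 7.46 in female and 6.78 in male arrays (difference 0.68, SE 0.20). *ELK1* (0.67, SE 0.19) and *RPS6KA3*, a kinase downstream of ERK (0.69, SE 0.21), were likewise higher in females. All 3 are X-linked, among 8 genes of the 4 lists that the RefSeq table places on the X chromosome, and the table gives no chromosome for *FGF13*. *RPS6KA1*, the autosomal relative of *RPS6KA3*, was lower in females (-0.43, SE 0.15), and so was *FGF5* (-0.17, SE 0.07), at a mean of 2.54. Adjusted P of these 5 genes lay between 0.41 and 0.95. Male control replicate 2, whose sex genes went against its label, is among the male arrays here as well. Without single arrays the difference ran from 0.57 to 0.78 for *ARAF*, 0.58 to 0.75 for *ELK1* and 0.59 to 0.84 for *RPS6KA3*. It ran from -0.50 to -0.33 for *RPS6KA1* and from -0.19 to -0.14 for *FGF5*.

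Correlations between members were weak for the most part. Over the 20 arrays, which share the groups and the normalization, the strongest correlation between probe sets of different members was -0.48 (Spearman -0.52, -0.66 without the 2 farthest arrays), between *FGF10* probe set 12785032 and *FGFR4*. That *FGF10* probe set was dim (mean 2.40) and spanned 0.33 log2 units over the arrays. With the group means taken out, the same pair had r = -0.42, and the strongest was *FGFR4* with *SPRY4* (-0.54). *FGFR2* and *SPRY4* had r = 0.39 (Spearman 0.43), and *SPRY2* and *SPRY4* had r = -0.25 (Spearman -0.20). *FGF4* and *DUSP6*, the most variable members, had r = 0.17 (Spearman 0.19).

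Of the 18456 other probe sets with 1 symbol, those most like *FGFR2* over the 20 arrays were *SRP9* (r = 0.73), *KLC1* (0.73) and *MINK1* (0.68). For *FGF4* they were *BCKDK* (0.81), *MIR2452* (0.72) and *NEXN* (0.68), and for *FGFR4* they were *MAP3K3* (0.75), *LOC777692* (0.71) and *IL7* (0.71). Without male control replicate 2 these coefficients lay between 0.68 and 0.86. They are the highest of many, and no function is read from them.

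Genes of other cells that a pool could carry were read beside the DKK1 results. Of 9 measured cumulus and granulosa cell genes, 2 had an unadjusted P under 0.05 over both sexes, against 3.97% of all probe sets. *INHBA* averaged 0.48 higher with DKK1 (SE 0.20) and 0.76 higher in females (SE 0.28). *AMH* went the other way, with a log2 difference of -0.28 over both sexes and -0.43 in females. The call over both sexes held in 27 of 27 alternatives for *AMH* and in 24 of 27 for *INHBA*. The mean of the 9 genes per array was 3.79 to 4.07 in DKK1 and 3.65 to 4.17 in control arrays. The defining genes *CYP19A1* and *FSHR*, of granulosa cells, averaged 4.78 and 2.94. Of 7 oocyte genes, 6 were lower with DKK1 (median difference -0.35), 0 of them with an unadjusted P under 0.05 over both sexes and *ZP3* alone in females (-0.82, SE 0.39), and the mean per array was 4.72 to 5.87 in DKK1 and 5.00 to 6.43 in control arrays. The mean of 4 sperm genes was 3.43 to 4.38 in DKK1 and 3.57 to 4.49 in control arrays. The part of these genes in the *FGFR2* result was not tested.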

How the data were processed

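RNA of each pool was amplified (Ovation Pico WTA V2), labelled with biotin and hybridized to 1 array. The deposited values are log2 intensities, 1 per probe set and array, which the authors made in Affymetrix Expression Console by robust multi-array average (RMA: background correction, quantile normalization, log2 and summary of probes). Versions are not given in the sources used here. The medians of the deposited arrays still differed (4.58 to 4.82). Gene symbols came from the array annotation.

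All 26773 probe sets were fitted without a filter in R 4.3.3 with limma 3.58.1 (means of the 4 groups, moderated variances, Benjamini-Hochberg over all probe sets) for 5 contrasts. Calls were counted at an unadjusted P under 0.05, the first of several criteria in the study's methods (its fold-change limit, correction and expression filter were not applied), and at an adjusted P under 0.05. Members were also tested by exact permutation of treatment within sex (252 regroupings for 1 sex, 63504 for both). The fit was tested on simulated data with independent normal noise and planted differences larger than any found for the members. Differences as small as theirs and arrays related to each other were not simulated. Figures used Python 3.11.15 and matplotlib 3.10.9.

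All members are named. Of the 4 pathway lists, genes with an unadjusted P under 0.05 in a contrast (up to 5 per list and contrast) and the 2 with the highest mean are named, with the probe set of the highest mean standing for a gene. Marker genes were named for checks after their values were seen. The 3 probe sets of the largest r are named for *FGFR2*, *FGF4* and *FGFR4*. Members and lists were chosen with earlier results of these data known. Neither labels nor methods say which fertilization each pool came from, so P values measure the spread between these pools, whose number limits the precision.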

Additional observations from a re-analysis of the deposited data

Results flagged for a closer look

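Each member was examined in each group for an array far from the other 4 (44 groups of 5 arrays, Dixon's criterion at 0.71), and 1 stood apart. Female DKK1 replicate 2 read 2.26 for *FGF10* probe set 12785032, against 2.38 to 2.43 on the other 4 arrays of the group, a gap of 0.710 of the range. Chance alone sets apart about 5% of such groups.

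The interaction, DKK1 effect in female less DKK1 effect in male morulae, passed an unadjusted P under 0.05 for 3 of the pathway genes, *FRS2* (0.94), *PLCG1* (0.65) and *KL* (0.40), with adjusted P over 0.99 in each case by limma. No FGF ligand, receptor or feedback inhibitor among the 11 probe sets did so.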

How the results depend on the processing

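Results were recomputed under 28 alternatives: 20 that left out 1 array each and 8 other fits. The exact permutation was run for the members' DKK1 differences. The 34 member differences followed were those of every member for DKK1 over both sexes and a part of those in the other contrasts. Some of those not followed lay near 0, such as the sex difference of *FGFR3* (-0.011). Of the 34, 28 kept their direction throughout. All 17 followed differences of list and marker genes did so too. Each of the 17 had an unadjusted P under 0.05 in the main fit, which made a change of sign unlikely in advance. The sign of *DUSP6* for DKK1 turned with array weights (0.071) and after centering arrays on their medians (0.00852), and without single arrays it ran between -0.19 and 0.19. Among the 34, other ranges crossed 0 without single arrays. For DKK1 they were *FGF2* (-0.11 to 0.00020) and *FGF4* (-0.28 to 0.21). By sex they were *SPRY2* in females (-0.073 to 0.24) and *FGF4* in males (-0.93 to 0.053). The last was *FGF4* for female minus male (-0.43 to 0.074).

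The 10000 brightest probe sets hold 4 members but neither *FGFR2* nor *FGF10*, the genes called in the main fit. Among these 4 members 0 were called for DKK1 and 0 in females, so no call was lost there. In females 1 was called with the unmoderated model, and in males 1 (*SPRY2*) with array weights and 1 with quantile normalization. Leaving out arrays gave 1 to 2 called members for DKK1, 0 to 2 in females, 0 to 2 in males, 0 to 1 for sex and 0 to 1 for the interaction. Over all probe sets at an adjusted P under 0.05, females had 1 and 0 among the 10000 brightest, with the replicate block, the unmoderated model and array weights. The interaction had 1, and 0 among the 10000 brightest, with the replicate block and the unmoderated model. Sex had 9, and 3 (unmoderated), 20 (intensity trend) and 28 (array weights). Without single arrays the counts were 0 to 1 (DKK1, females and interaction) and 4 to 20 (sex, the 20 without male control replicate 2).

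Replicate numbers were not taken as pairs in the main fit, because the labels do not say what they mark. The paper states that pools were harvested in replicates, and it fitted replicate as a random effect for embryo development. Its model for the arrays had no replicate term. A number may mark a shared run, which the main fit and the permutation did not take into account. Same-numbered arrays of different groups had a mean correlation of deviations of 0.01 (30 pairs, -0.12 to 0.12). However, 9 of 20 arrays correlated best with an array of their own number, where 4 would if numbers were unrelated. For *FGFR3* the same number was highest in every group. With the replicate block *FGFR2* kept its call for DKK1, *FGF10* probe set 12787027 in females lost it and *FGFR3* in females gained one. Dim probe sets (*FGF2*, *FGF10*) leave little room to detect a decrease.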
